A study of Mus musculus with 18 samples.

Results

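Scaffold proteins of the postsynaptic density were followed at the level of their transcripts, in total RNA and in RNA sorted by poly(A) tail length, from control mice and from mice with a CPEB4 transgene. The genes were chosen by name: Shank1, Shank2, Shank3, Dlg2, Dlg3, Dlg4, Dlgap1, Homer1 and Homer2, with every probe set that the array annotation pairs with one of them alone. Of these 9 genes, 7 had such a probe set. They had 19 probe sets in all, among the 45037 on the array that are not controls, and 18 of the 19 were bright enough on average to be tested, as were 27022 of all probe sets. Shank2 and Dlg4 had no probe set named for them in the annotation used here and have no value.

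The postsynaptic density is a layer of protein beneath the membrane of excitatory synapses. Membrane-associated guanylate kinases, encoded by Dlg genes, bind glutamate receptors and adhesion molecules at the membrane. Dlgap proteins bind the guanylate kinase domain of these proteins and link them to the Shank proteins, which in turn bind Homer. Homer proteins form multimers that tie Shank to group I metabotropic glutamate receptors and to inositol trisphosphate receptors of the endoplasmic reticulum. Loss of Shank3 is a known cause of autism with intellectual disability. CPEB4 binds cytoplasmic polyadenylation elements in the 3' ends of transcripts and alters the length of their poly(A) tails.

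Cortex and striatum were dissected together at 6 weeks of age from 3 control mice (labelled CTRL) and 3 mice labelled TgCPEB4∆4, a transgene for a CPEB4 form that lacks a neuronal microexon. Each mouse gave a total RNA array (INPUT), an array of RNA released from a poly(U) column at 25% formamide (WASH, enriched for short tails) and an array of RNA released at 90% formamide (ELUTED, enriched for long tails), which makes 18 arrays. The labels do not give the strain or sex of the mice or the promoter that drives the transgene. Values are log2 expression, and because each array was scaled to a like distribution, a value gives a transcript's standing within its preparation and not the amount of RNA in it.

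The array medians lay between 6.42 and 6.59, and all 7 neuron markers measured stood above every nonspecific control probe set on each total RNA array. Transgenic mouse 1 stood apart: the median of 7 inflammation genes in its total RNA was 10.5, against 6.21 to 6.37 in control mice and 6.52 to 6.85 in the other two transgenic mice. Over the marker lists, the median difference in total RNA, transgenic minus control, was 0.48 for astrocyte genes (6 of 6 measured were higher), 0.40 for microglia (4 of 6), 0.29 for endothelial and mural cells (5 of 5), 0.52 for meningeal cells and fibroblasts (4 of 4) and 1.05 for inflammation (7 of 7). It was -0.14 for neurons (1 of 7 higher), 0.076 for cortical excitatory neurons (2 of 3), -0.20 for striatal medium spiny neurons (2 of 7) and -0.094 for oligodendrocytes (1 of 5). None of these genes passed the test. Of the 7 inflammation genes, 2 stood above the highest nonspecific control on all 3 total RNA arrays of each genotype. The inflammation medians of all mice but transgenic mouse 1 lay below that line, which was 7.07 to 7.52 on their arrays. The 1.05 therefore rests largely on values near or below it and on transgenic mouse 1.

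In total RNA, Homer1 had the lowest values relative to control of any scaffold gene. Homer1 has long forms that cross-link synaptic proteins and a short form, induced by neuronal activity, that competes with them. Its brightest probe set, 1421768_PM_a_at, read 10.79, 10.87 and 10.68 in the total RNA of control mice 1, 2 and 3, and 9.75, 10.31 and 10.53 in transgenic mice 1, 2 and 3. All 3 transgenic values lay below all 3 control values, and transgenic mouse 1 was the lowest.

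The promoter of Homer1 is shown because the gene is known to be induced by synaptic activity, and because all 5 of its probe sets read lower in transgenic mice. The RefSeq table of build GRCm38.p6 holds promoter sequence for 7 of the 9 genes. Below are the 250 bases before the annotated start of Homer1, chr13:93303507-93303756 on the plus strand, 5′ to 3′, with each match to TGACG in capitals, the half-site of the element that CREB and related factors bind.
Homer1: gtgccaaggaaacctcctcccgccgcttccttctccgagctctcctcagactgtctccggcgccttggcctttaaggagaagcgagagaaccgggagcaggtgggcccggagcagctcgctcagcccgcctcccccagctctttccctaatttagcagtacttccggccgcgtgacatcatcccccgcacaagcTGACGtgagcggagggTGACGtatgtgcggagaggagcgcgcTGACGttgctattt
The 3 matches begin 56, 40 and 14 bases before the start, and none overlaps another. At least 1 match to TGACG on either strand was found in 17.8% of 32851 promoter windows of this length, and at least 3 in 0.688%. The full palindrome TGACGTCA, present in 1.55% of windows, was not among the letters of this one.

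The other Homer1 probe sets also read lower in the total RNA of transgenic mice. For 1437363_PM_at the values were 10.21, 10.12 and 9.63 in control mice and 9.17, 9.49 and 9.62 in transgenic mice. The dimmest, 1425671_PM_at, read 7.77, 7.55 and 7.03 against 5.99, 7.26 and 7.17, which overlap, and in total RNA it rose above the brightest nonspecific control probe set in 2 control mice and in 0 transgenic mice. The fourth in brightness, 1425710_PM_a_at, averaged 7.75 ± 0.14 (SD, n = 3) against 7.25 ± 0.23, and 1 of its 3 transgenic values exceeded that line. Without overlap between the genotypes were 4 of the 5 Homer1 probe sets, all with transgenic values below control values, and none of the other 13 scaffold probe sets. Among all probe sets tested 7.3% had such values in total RNA.

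None of the Homer1 differences passed the test. With standard errors, the difference was -0.59 ± 0.19 for 1421768_PM_a_at (1.5-fold lower), -0.56 ± 0.18 for 1437363_PM_at, -0.55 ± 0.15 for 1439662_PM_at and -0.50 ± 0.14 for 1425710_PM_a_at, each with an adjusted p of 0.423. For 1425671_PM_at the measured difference was -0.65 ± 0.33 (adjusted p = 0.493). No transgenic value exceeded the highest nonspecific control, though 2 of 3 exceeded the 95th percentile of these controls. The difference is therefore only a bound, and no fold is given. The share of all 27022 probe sets that passed an adjusted p of 0.05 in total RNA was 0% (2935 had an unadjusted p under 0.05, and the lowest adjusted p was 0.358). Among the 18 scaffold probe sets, 4 had an unadjusted p under 0.05, all of Homer1.

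Transgenic mouse 1 read lowest of the 6 mice for each Homer1 probe set in total RNA. Without it, the difference was -0.36 for 1421768_PM_a_at, -0.45 for 1439662_PM_at and -0.24 for 1425671_PM_at, with adjusted p between 0.621 and 0.797 over the 5 probe sets. The median of the striatal marker genes also lay lower in transgenic total RNA, at 8.90 to 9.27 against 9.60 to 9.65 in control mice. Gene by gene the median difference was -0.20, with 2 of 7 higher. The list medians overlapped in short-tail arrays (9.07 to 9.33 against 9.18 to 9.36) but not in long-tail arrays (9.49 to 9.68 against 9.87 to 10.07). The gene by gene differences ran the other way. Their median was -0.26 in short-tail arrays, with 1 of 7 higher, and -0.0021 in long-tail arrays, with 3 of 7 higher. In total RNA the medians of astrocyte genes were 9.54 to 10.5 in transgenic and 9.27 to 9.42 in control mice. The part of these markers in the Homer1 values was not tested, and in bulk tissue fewer cells of a type cannot be told apart from less RNA per cell.

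Genes known to respond to neuronal activity were examined beside Homer1. Of 9 listed, 8 were measured, and 5 read lower and 3 higher in transgenic total RNA, with a median difference of -0.43 and none passing. Egr2, an immediate early transcription factor, was at -0.72 ± 0.31 (adjusted p = 0.458), and Arc, whose product regulates AMPA receptor traffic, was at -0.57 ± 0.46 (adjusted p = 0.629). Fos was at 0.10 ± 0.22 (adjusted p = 0.865). The list median ran from 7.78 to 8.64 over transgenic mice and from 8.00 to 8.63 over control mice, so the genotypes overlapped, again with transgenic mouse 1 lowest.

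Homer1 read lower in both tail fractions too. In the long-tail fraction 1421768_PM_a_at stood at 10.78, 10.12 and 10.11 in control mice and at 9.14, 9.64 and 9.49 in transgenic mice, a difference of -0.92 ± 0.24 (1.89-fold lower, adjusted p = 0.278). The other 4 Homer1 probe sets differed by -0.44 to -0.78 in that fraction (adjusted p from 0.278 to 0.346), and 4 of the 5 did not overlap between genotypes. The -0.78 is that of 1425671_PM_at, which exceeded the highest nonspecific control in 2 control mice and 1 transgenic mouse, and 1425710_PM_a_at did so in 2 control mice and 3 transgenic mice. With all arrays in 1 fit and the mouse as a random block, 1421768_PM_a_at, 1437363_PM_at and 1439662_PM_at passed in the long-tail fraction (adjusted p = 0.0133, 0.0297 and 0.0294), as did 17.3% of all probe sets. That fit shares 1 spread over the 3 preparations. In the separate fits the SE of these probe sets was 0.22 to 0.24 in long-tail arrays. It was 0.14 to 0.18 in short-tail arrays and 0.15 to 0.19 in total RNA. The p-values of the shared fit can therefore come out too small for long-tail values. In the short-tail fraction the 5 differences ran from -0.23 to -0.57 (adjusted p from 0.185 to 0.467), and 2 of 5 did not overlap. Without transgenic mouse 1 the short-tail difference was -0.24 in place of -0.45 for 1421768_PM_a_at, -0.17 in place of -0.30 for 1437363_PM_at, -0.11 in place of -0.23 for 1439662_PM_at and -0.097 in place of -0.57 for 1425671_PM_at, whose value of 5.36 in that mouse was below the highest nonspecific control of 5.75. The share of probe sets with all transgenic values below all control values was 10.5% for WASH arrays and 10.3% for ELUTED arrays.

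**Figure D1:**
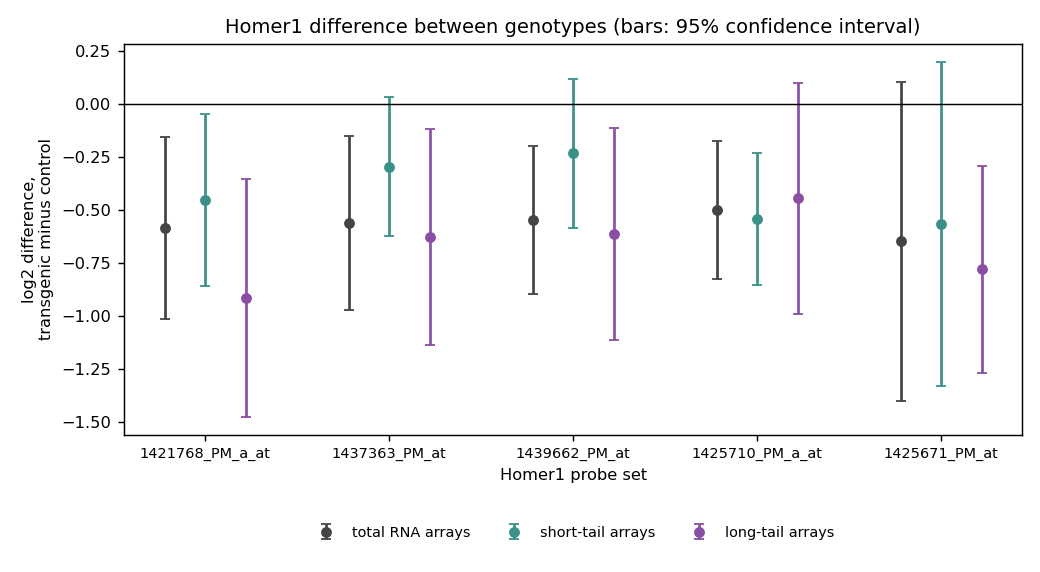
Log2 difference between genotypes (vertical axis, transgenic minus control, 3 mice each) for the 5 Homer1 probe sets (horizontal axis) in total RNA, short-tail and long-tail arrays, with 95% confidence intervals that are not adjusted for the number of probe sets. All 15 points lie below 0, from -0.23 to -0.92. The transgenic total RNA values behind the point of 1425671_PM_at did not exceed the highest nonspecific control of their arrays.

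The remaining scaffold genes had total RNA differences nearer to 0. Shank1 read 9.84, 9.89 and 9.98 in control mice and 9.33, 9.79 and 10.06 in transgenic mice, which overlap. Shank3 read 8.06, 8.21 and 8.08 against 7.52, 7.77 and 8.29, with a difference of -0.26 ± 0.18 (adjusted p = 0.594). Dlg3, the guanylate kinase prominent in young neurons, had the closest means, 9.59 ± 0.0065 (SD, n = 3) and 9.58 ± 0.054 (SD, n = 3). The 13 probe sets outside Homer1 differed by between -0.26 and 0.057. Counting Homer1, 16 of 18 were lower and the median was -0.16, beside 0.019 over all probe sets tested. Lower values were not particular to this set. The median was -0.14 for the neuron markers (6 of 7 lower) and -0.084 for other scaffolds and adaptors (15 of 19 lower). For receptors and signalling proteins that bind the scaffolds it was -0.087 (14 of 18 lower).

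**Figure D2:**
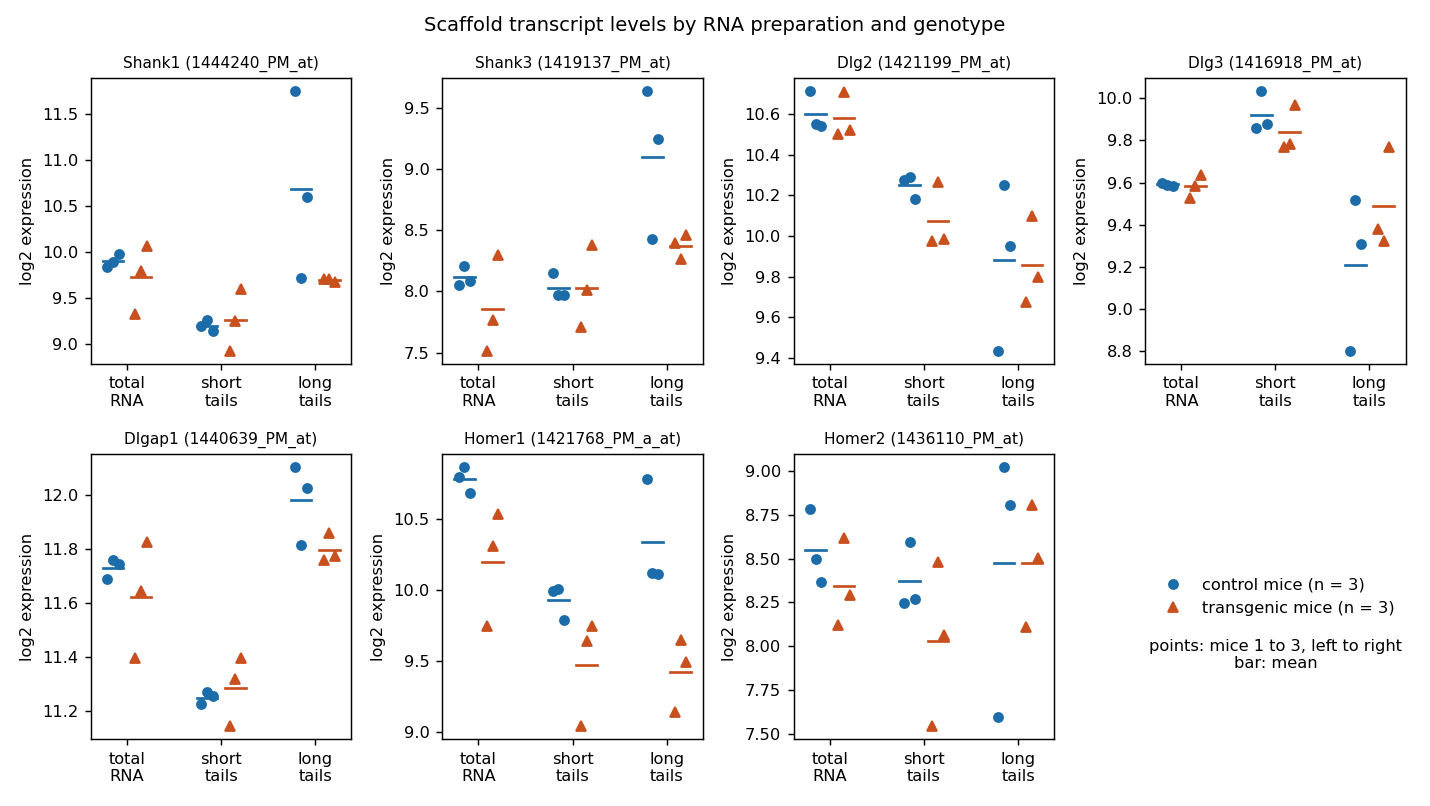
Log2 expression (vertical axes, a separate range for each gene) of the brightest probe set of each scaffold gene in the total RNA, short-tail and long-tail arrays (horizontal axes) of control and transgenic mice, with 1 point per mouse and a bar for the mean. Homer1 lies lower in transgenic mice in all 3 preparations, and Shank1 and Shank3 spread over control mice most in the long-tail arrays.

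The tail ratio of a transcript is its log2 value in the long-tail fraction of a mouse minus that in the short-tail fraction, so a positive ratio means a larger share among long-tailed RNA. In control mice 10 of the 18 scaffold probe sets had a ratio that passed the test against 0, 7 of them positive and 3 negative. Among all probe sets tested 27.6% passed as positive and 35.4% as negative. The scaffold median was 0.066 beside -0.068 over all probe sets. When the fractions were fitted as unpaired groups, 6 scaffold probe sets and 60.3% of all probe sets passed. Shank1 (1444240_PM_at), Shank3 (1419137_PM_at), Dlg3 (1416918_PM_at) and 2 Dlgap1 probe sets were the 5 that also passed whichever of the 6 mice was left out. The calls of Dlg2 1421200_PM_at, Dlgap1 1429105_PM_at, Homer1 1421768_PM_a_at and 1425710_PM_a_at, and Homer2 1424367_PM_a_at were each lost without some mice, control mouse 3, transgenic mouse 1 and transgenic mouse 2 among them.

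Shank proteins form the deep layer of the density, and their transcripts had the highest mean ratios of the set in control mice, though not in transgenic mice. There the means of Dlgap1 1440639_PM_at (0.511) and Homer2 1436110_PM_at (0.444) exceeded those of Shank1 (0.437) and Shank3 (0.341). Homer2 1424367_PM_a_at (0.384) also exceeded Shank3. In control mice the short-tail values of Shank1 were 9.20, 9.26 and 9.14 and its long-tail values 11.74, 9.72 and 10.60. Its ratios of 2.54, 0.46 and 1.46 were all above 0 and averaged 1.49 ± 0.33 (SE, adjusted p = 0.00558), a 2.81-fold larger value in the long-tail fraction. That SE pools the spread of both genotypes, and the Shank1 ratios had an SD of 1.04 in control and 0.35 in transgenic mice. Shank3 had short-tail values of 8.15, 7.97 and 7.97 and long-tail values of 9.63, 8.43 and 9.24. Its ratios were 1.48, 0.46 and 1.27, with a mean of 1.07 ± 0.21 (adjusted p = 0.00333). Control mouse 2 was the lowest for both genes. Without it, the mean was 2.00 for Shank1 and 1.37 for Shank3, and without control mouse 1 it was 0.96 and 0.86.

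In transgenic mice the mean Shank ratios were nearer to 0. Those of Shank1 were 0.77, 0.45 and 0.083, with a mean of 0.44 ± 0.33 (adjusted p = 0.323), and those of Shank3 were 0.69, 0.25 and 0.083, with a mean of 0.34 ± 0.21 (adjusted p = 0.231). The highest transgenic value of each gene lay above the lowest control value, so the genotypes overlapped. The difference between genotypes was -1.05 ± 0.47 for Shank1 (adjusted p = 0.373) and -0.73 ± 0.30 for Shank3 (adjusted p = 0.371). Neither passed the test. In the long-tail arrays the difference was -0.99 ± 0.44 for Shank1 (adjusted p = 0.31), whose 3 transgenic values of 9.68 to 9.71 lay just below the lowest control value of 9.72, and -0.73 ± 0.30 for Shank3 (adjusted p = 0.296). In the short-tail arrays both differed by less than 0.1, at 0.062 ± 0.16 for Shank1 and 0.00030 ± 0.16 for Shank3.

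The Dlg transcripts differed among themselves. Dlg3 had negative ratios in every control mouse, at -1.06, -0.51 and -0.57 (mean -0.71 ± 0.15, adjusted p = 0.00399), and in every transgenic mouse, at -0.39, -0.46 and -0.20 (mean -0.35 ± 0.15, adjusted p = 0.0968). When the arrays were quantile normalized again, which moved the median ratio of all probe sets in control mice from -0.068 to 0.084, the control mean was -0.31 (adjusted p = 0.0671). Each transgenic ratio of Dlg3 lay above each control ratio, with a difference of 0.36 ± 0.21 (adjusted p = 0.43). Of the 18 scaffold probe sets 2 had tail ratios placed in this way, Dlg3 and Dlgap1 1436076_PM_at, beside 9.66% of all probe sets.

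Dlg2, which groups glutamate receptors and potassium channels at the membrane, gave different ratios by probe set. Probe set 1421200_PM_at had short-tail values of 9.71, 9.70 and 9.51 and long-tail values of 10.46, 9.71 and 10.19 in the control group. Its control ratios of 0.75, 0.0093 and 0.68 were above 0 (mean 0.48 ± 0.16, adjusted p = 0.0303), and its transgenic ratios of -0.29, -0.25 and -0.20 were below 0 (mean -0.25 ± 0.16, adjusted p = 0.26). The genotypes differed by -0.73 ± 0.23, which did not pass (adjusted p = 0.371). When the arrays were quantile normalized again, the transgenic mean of this probe set turned slightly positive. The brightest Dlg2 probe set, 1421199_PM_at, had negative ratios in all 6 mice, from -0.84 to -0.041. The third, 1437927_PM_at, had control ratios of 0.48, -0.47 and -0.22 and transgenic ratios of -0.53, -0.56 and -0.30 (mean -0.47 ± 0.18, adjusted p = 0.0821), a difference of -0.39 ± 0.26 (adjusted p = 0.476). Over the 18 arrays the 3 Dlg2 probe sets correlated with each other at r between -0.40 and 0.26, as a description over arrays that share mice, so a statement on Dlg2 holds for a probe set and not for the gene.

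Dlgap1, the link between the guanylate kinases and Shank, had a positive ratio in every mouse at its brightest probe set. That probe set, 1440639_PM_at, had ratios of 0.88, 0.55 and 0.77 in control mice (mean 0.73 ± 0.13, adjusted p = 0.00202) and 0.62, 0.54 and 0.38 in transgenic mice (mean 0.51 ± 0.13, adjusted p = 0.0205). The ratios were positive in 6 of 6 mice and overlapped between the genotypes. Probe set 1429105_PM_at averaged 0.46 ± 0.17 in control mice (adjusted p = 0.0387; 0.29 and adjusted p = 0.169 without control mouse 1) and 0.086 ± 0.17 in transgenic mice (adjusted p = 0.702), and 1453027_PM_at had ratios between -0.059 and 0.39 in the 6 mice. In contrast, 1436076_PM_at had ratios of -2.76, -0.57 and -1.02 in control mice (mean -1.45 ± 0.37, adjusted p = 0.00998) and -0.40, -0.49 and 0.34 in transgenic mice, a difference of 1.27 ± 0.52 (adjusted p = 0.371). In control mouse 1 its long-tail value of 6.23 was below the highest nonspecific control, and without that mouse the control mean was -0.79 (adjusted p = 0.00865) and the difference 0.61 (adjusted p = 0.548). Pairs of the 4 tested Dlgap1 probe sets correlated at -0.60 to 0.58 over the arrays. The fifth, 1438098_PM_at, read 5.11 to 5.76 and was too dim to be tested.

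Homer transcripts had ratios near 0 or of mixed sign. For Homer1, 1421768_PM_a_at averaged 0.41 ± 0.16 in control mice (ratios 0.80, 0.12 and 0.32, adjusted p = 0.0486) and -0.049 ± 0.16 in transgenic mice (ratios 0.10, 0.0074 and -0.26, adjusted p = 0.822). Without control mouse 1 its control mean was 0.22 (adjusted p = 0.245). Probe set 1425710_PM_a_at averaged -0.39 ± 0.14 in control mice (adjusted p = 0.0353) and -0.29 ± 0.14 in transgenic mice (adjusted p = 0.128). Probe set 1439662_PM_at averaged -0.22 ± 0.13 in control mice (adjusted p = 0.175) and -0.60 ± 0.13 in transgenic mice (adjusted p = 0.0146), and its transgenic ratios of -0.50, -0.66 and -0.64 lay below the control ratios of -0.0064, -0.48 and -0.18. The 5 Homer1 probe sets varied together in level over the arrays, with r between 0.64 and 0.93. Which Homer1 forms each probe set detects was not analysed here. Homer2, a related adaptor, had 1 probe set with a ratio that passed in control mice, 1424367_PM_a_at at 0.44 ± 0.17 (adjusted p = 0.0478). Its ratios were positive in 6 of 6 mice, at 0.013, 0.47 and 0.83 in the control group against 0.48, 0.21 and 0.46 in the transgenic group. Without control mouse 3 the control mean was 0.24 (adjusted p = 0.292). The dimmest Homer2 probe set, 1457671_PM_at, had ratios of -0.76, -0.14 and -0.11 in control mice (mean -0.34 ± 0.17, adjusted p = 0.107) and -0.24, -0.31 and 0.13 in transgenic mice. The brightest, 1436110_PM_at, ran from -0.65 to 0.54 in control and from 0.32 to 0.57 in transgenic mice.

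**Figure D3:**
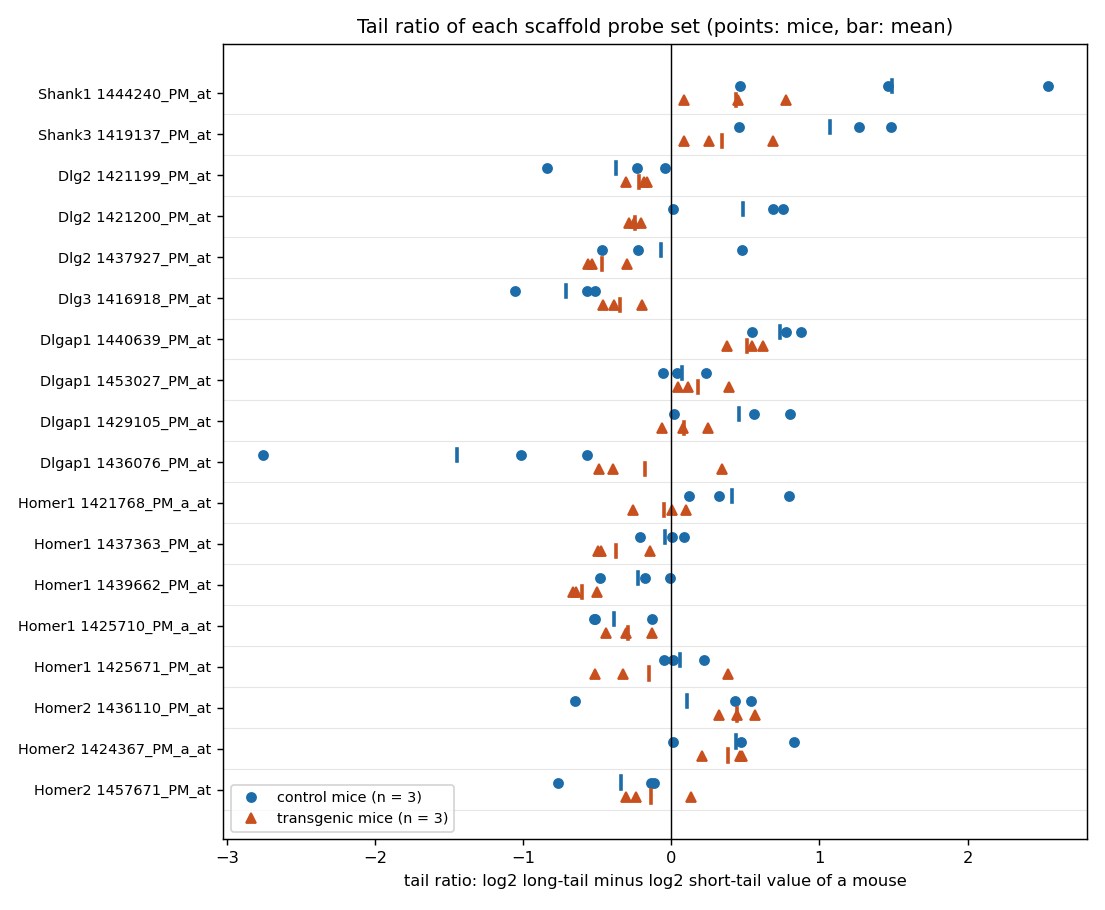
Tail ratio (horizontal axis, log2 long-tail minus log2 short-tail value of a mouse) of the 18 tested scaffold probe sets (vertical axis), with 1 point per mouse and a bar for the mean of each genotype. Shank1 and Shank3 are positive in all 6 mice and Dlg3 is negative in all 6. Dlg2 1421200_PM_at lies above 0 in control and below 0 in transgenic mice. Where 0 falls depends on how the arrays were scaled.

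In transgenic mice 2 of the 18 scaffold ratios passed against 0, Dlgap1 1440639_PM_at as positive and Homer1 1439662_PM_at as negative. Neither passed without transgenic mouse 1 (adjusted p = 0.148 and 0.0912) or without transgenic mouse 2 (0.144 and 0.122). The control count is not directly comparable with this one, as the spread was pooled over both genotypes. Among all probe sets 12.7% passed as positive and 19.1% as negative in transgenic mice, so that 40% of the calls were positive. That share was 55.5% when the arrays were quantile normalized again and 57.8% when the ratios of each mouse were centred. No difference in ratio between genotypes passed for any of the 27022 probe sets (0%, with 3621 at an unadjusted p under 0.05 and a lowest adjusted p of 0.371). Of the scaffold probe sets 3 had an unadjusted p under 0.05, and 3 had all transgenic ratios below all control ratios, Dlg2 1421200_PM_at and 2 of Homer1, beside 8.57% of all probe sets. The shares passing between genotypes were also 0% for short-tail values (4466 at an unadjusted p under 0.05, lowest adjusted p 0.0609) and 0% for long-tail values (4454, lowest adjusted p 0.278).

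Control mice 1 and 2 both bore on these comparisons. Without control mouse 2, the ratio differed between genotypes for Shank1 by -1.57 (adjusted p = 0.0319) and for Shank3 by -1.03 (adjusted p = 0.0357). For Dlg2 1421200_PM_at it differed by -0.96 (adjusted p = 0.0226), and 2487 of all probe sets (9.2%) passed. Without control mouse 1, the same differences were -0.52, -0.52 and -0.59 (adjusted p from 0.524 to 0.639). The long-tail array of control mouse 1 stood apart from the other long-tail arrays. Its highest nonspecific control was 7.30, against 5.53 to 6.29 on the others. The SD of its values was 1.70, against 1.77 to 1.91. The results without control mouse 2 keep this array, and its part in the wide ratios of control mouse 1 was not tested. The SD of the tail ratio over all probe sets tested was 1.19, 0.593 and 0.859 in control mice 1, 2 and 3 and 0.614, 0.621 and 0.388 in transgenic mice 1, 2 and 3, lower in control mouse 2 and in the transgenic mice than in the other two control mice.

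When the ratios of each mouse were divided by that SD, 11 of the 18 scaffold probe sets passed in transgenic mice, beside 61.1% of all probe sets tested. Dlgap1 1440639_PM_at then stood at 0.74, 0.92 and 0.90 SD units in control mice against 1.00, 0.87 and 0.97 in transgenic mice, which overlap, and the difference turned from -0.22 to 0.094. The Shank3 values in these units were 1.25, 0.77 and 1.47 in control mice and 1.12, 0.41 and 0.21 in transgenic mice, a difference of -0.58 (adjusted p = 0.439). For Dlg2 1421200_PM_at the values were 0.63, 0.016 and 0.80 against -0.47, -0.40 and -0.52, a difference of -0.95 (adjusted p = 0.303). The Dlg3 values were -0.89, -0.86 and -0.66 in control mice and -0.63, -0.74 and -0.52 in transgenic mice. They overlap in these units, although the undivided Dlg3 ratios did not.

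**Figure D4:**
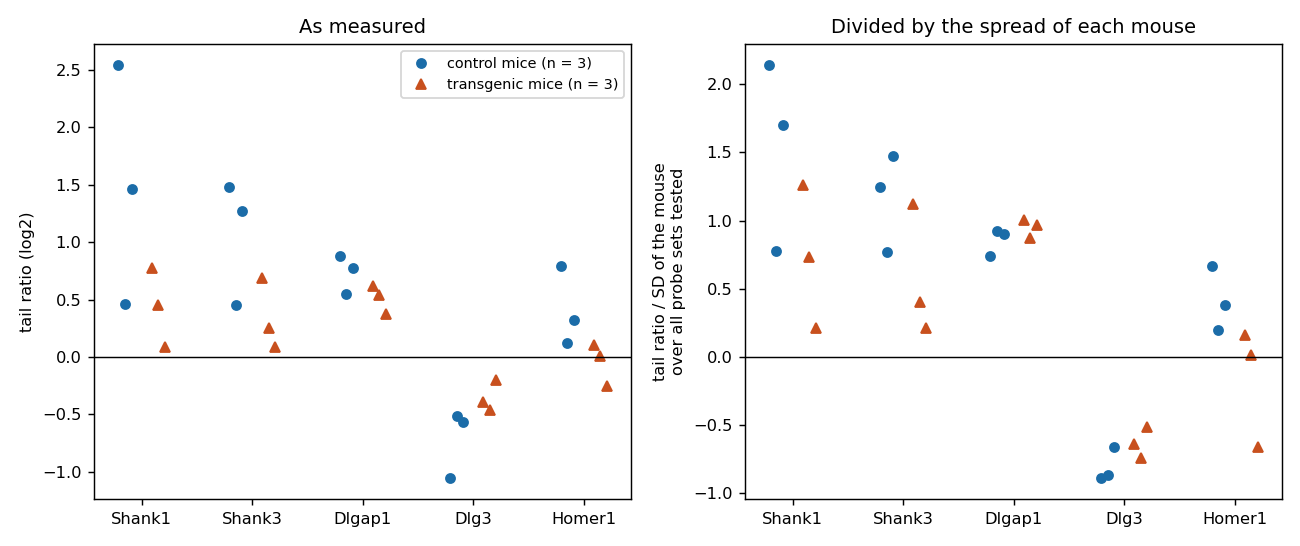
Tail ratios of the brightest probe sets of Shank1, Shank3, Dlgap1, Dlg3 and Homer1 (horizontal axes) in each mouse, as measured on the log2 scale (left) and divided by the SD of that mouse's ratios over all probe sets tested (right). Dlgap1 lies between 0.74 and 1.00 in all 6 mice after division.

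Related genes of the same structures also held transcripts of both kinds. Of 26 other scaffolds and adaptors 19 were measured, and in control mice the ratios that passed were positive for 6 and negative for 3 (median 0.22). Of 23 receptors and signalling proteins that bind the scaffolds 18 were measured, with 7 positive and 3 negative calls (median 0.26). Counted over every probe set of these genes, the adaptors had 11 positive and 10 negative calls of 47 (median 0.060) and the partners 25 positive and 6 negative of 44 (median 0.50). The shares over all probe sets tested in control mice were 27.6% positive and 35.4% negative, with a median of -0.068. The highest ratios among those that passed were of Nlgn1, a postsynaptic adhesion protein (1.46 ± 0.19, adjusted p = 0.000733), Grin2a, an NMDA receptor subunit (1.23 ± 0.21, adjusted p = 0.00191), and Dynll2, a dynein light chain (1.20 ± 0.20, adjusted p = 0.00163). The lowest were of the adaptors Lin7b (-1.54 ± 0.22, adjusted p = 0.000998) and Lin7c (-1.30 ± 0.18, adjusted p = 0.000912) and of Dlg1, a further guanylate kinase (-0.98 ± 0.17, adjusted p = 0.00221). In transgenic mice the adaptors had 0 positive and 3 negative calls and the partners 2 positive and 0 negative, and over every probe set 2 and 7 for the adaptors and 8 and 1 for the partners. Over all probe sets tested the transgenic shares were 12.7% positive and 19.1% negative. No gene of either list passed between genotypes in any preparation or in the ratio.

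The transcripts whose levels most resembled each scaffold were found by correlation over the 18 arrays, which come from 6 mice and share preparations. Shank1 was most like Kcnc1, a potassium channel (r = 0.98), and Chrm1, a muscarinic receptor (r = 0.98). Shank3 was most like Gramd1b (r = 0.98) and Dlgap4, which encodes a binding partner of Shank proteins (r = 0.98). Dlg3 resembled Cldn12 and Atrnl1 (both r = 0.97), and Dlg2 resembled Agtpbp1 (r = 0.98) and Tacc1 (r = 0.94). Dlgap1 was closest to the channel genes Kcnj6 and Cacna1e (both r = 0.95), and Homer1 to Unc13c (r = 0.97), a presynaptic priming factor, and Usp31 (r = 0.95). Homer2 had lower values, at 0.91 for the postsynaptic anchoring protein Akap5 and 0.87 for Inka2.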

How the data were processed

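The authors deposited log2 values for each probe set that, per the submitters' processing notes, come from RMA, and they ran from 3.57 to 13.6. Per the labels' protocols the RNA was amplified before labelling, which can stretch or compress differences. The series text names another array design than the probe set names do, and the annotation of the latter was used (1 gene for 28898 probe sets, several for 551, no entry for 15588). After 104 control probe sets were left out, those with a mean over 18 arrays above the 40th percentile (5.95) were tested in R 4.3.3 with the packages limma 3.58.1 and statmod 1.5.0, Benjamini-Hochberg adjusted over all of them, two-sided, at 0.05. Total RNA, short-tail and long-tail values were compared between genotypes in separate fits. Tail ratios were taken within a mouse, in 1 fit with a shared spread. The method was tested on simulated data with independent noise of equal spread in all groups. That setting does not cover the unequal spread of the tail ratios between mice and genotypes. Errors are SE of the fit unless named SD, and p-values measure the spread between mice, 3 a genotype, which limits the precision. For tail ratios that spread was pooled over both genotypes, although it differed between them. The SD was 1.04 in control and 0.35 in transgenic mice for Shank1, and 0.14 and 0.47 for Homer1 1425671_PM_at. Where a genotype spread more than the pooled value, its SE and p-value against 0 come out too small, and where less, too large. Both fractions come from 1 mouse per the labels, which is the pairing. Deviations of the fractions of a mouse correlated at -0.066, 0.16 and -0.025 in the control group, against 0.72, 0.33 and 0.43 in the transgenic group. Nonspecific controls were 23 probe sets, and the highest on each array was the line of detection. Each member's probe sets were all named, the brightest stood for its gene, and in related lists the 3 highest and 3 lowest control ratios that passed were named. Likeness used 2 genes a member. The members and lists were chosen with earlier results of these data known. Alternatives were filters, scalings, the prior, omitted mice and blocks.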

Additional observations from a re-analysis of the deposited data

Results flagged for a closer look

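The tail ratio of Dlg2 probe set 1421200_PM_at had opposite signs in the genotypes, above 0 in 3 of 3 control mice and below 0 in 3 of 3 transgenic mice. The difference, -0.73, was tested and did not pass (limma, adjusted p = 0.371). The ratio of control mouse 2, 0.0093, was close to 0. The transgenic mean turned slightly positive when the arrays were quantile normalized again, so its sign depended on the scaling. The other Dlg2 probe sets, 1421199_PM_at and 1437927_PM_at, differed between genotypes by 0.15 and -0.39.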

How the results depend on the processing

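The count of scaffold probe sets passing was 0 in total RNA and in the short-tail fraction under every alternative run. In the long-tail fraction it was 0, and 0 to 3 when single mice were left out, beside 0 to 8.58% of all probe sets. With all arrays in 1 fit and the mouse as a random block it was 4 (3 of Homer1 and Dlg2 1421200_PM_at), beside 17.3%. That fit shares 1 spread over preparations that differ in spread, so its long-tail p-values can come out too small. For the control ratio the scaffold count was 10, with 5 to 10 when mice were left out and 6 with the fractions fitted as unpaired groups. Of all 27022 probe sets, 13108 to 16944 and 60.3% passed in these settings. For the transgenic ratio the scaffold count was 2, with 0 to 7 when mice were left out, beside 0 to 13560 of all probe sets. It was 11 with ratios divided by the SD of each mouse, a setting added after the data were seen, beside 61.1%. For the ratio between genotypes the scaffold count was 0, with 0 to 3 when mice were left out, beside 0 to 9.2% of all probe sets. Replicate numbers did not pair mice across genotypes (correlations -0.20 to 0.26), and the replicate block left all 4 genotype counts at 0. Signs turned only for values that had not passed. With quantile normalization again, Homer1 1439662_PM_at in control mice was at 0.19, and in transgenic mice Dlg2 1421200_PM_at was at 0.0064, Dlgap1 1436076_PM_at at 0.090 and Homer1 1421768_PM_a_at at 0.22. The last was at 0.071 with arrays rescaled, 0.055 with ratios centred and -0.12 to 0.054 when mice were left out. Division by the SD turned the genotype difference of Dlgap1 1440639_PM_at to 0.094, Homer1 1425710_PM_a_at to -0.095 and Homer2 1424367_PM_a_at to 0.18, and leaving out mice put the last at -0.27 to 0.14. For 56 further scaffold values, none of which passed, 740 alternatives were computed. Changes of sign numbered 30 and passes 6. Over all probe sets, short-tail calls rose from 0 to 5 with a filter at the 60th percentile, 2 with quantile normalization again, 4 with arrays rescaled and up to 359 when mice were left out. Long-tail calls reached 4677 in the random block fit and 2319 without control mouse 2. Transgenic ratio calls, 8601, were 4612 with the stricter filter, 4986 with quantile normalization again, 16523 after division and 0 to 13560 when mice were left out. With every probe set in place of the brightest, control ratio calls in the related lists were 21 against 9 and 31 against 10, and transgenic ones 9 against 3 and 9 against 2. Values above the nonspecific controls numbered 310, and 323 above their 95th percentile. The causes of these changes were not tested.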
